A study of Mus musculus with 16 samples.

Results

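Ageing of the wild-type mouse heart was measured by RNA sequencing of 4 hearts from 25-month-old mice (WT_Aged) and 4 hearts from 8-week-old mice (WT_Young). These are 8 of the 16 hearts of the series, and they were chosen by their genotype and age labels alone. The wild-type mice were of the C57BL/6J strain with no engineered allele named. The other 8 hearts, used here only to test whether the ageing change differed by genotype, came from mice of the same ages with a systemic deletion of Armh4, a gene for a membrane protein (KO_Aged and KO_Young, 4 hearts each). All mice were kept on a normal diet in the same housing, the heart was dissected and frozen, and total RNA was extracted from it. At least 6 mice were raised per group, of which 4 were sequenced as separate animals. No age between these was measured. Dates of dissection and sequencing were not given in the sources used here, so a batch that followed age cannot be told apart from age.

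The heart is built mainly of cardiomyocytes by mass, but most of its cells are endothelial cells, fibroblasts, pericytes and macrophages. With age, resident macrophages are joined by cells recruited from blood, and interferons, which are cytokines released on infection and tissue stress, can switch on antigen presentation in many of these cell types. Matrix synthesis is most active while the heart grows, and mature matrix proteins then turn over slowly. In whole-tissue RNA, fewer cells of a type and less RNA per cell cannot be told apart, and this applies to every result below.

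Levels are given as CPM, counts scaled to a common library size, always in the order WT_Young_29, WT_Young_34, WT_Young_39 and WT_Young_42 for young hearts and WT_Aged_12, WT_Aged_4, WT_Aged_5 and WT_Aged_1 for aged hearts. Replicate numbers name animals and carry no order. Changes are log2 ratios of aged over young hearts ± their standard error. Adjusted p values are from the quasi-likelihood test of edgeR, adjusted over all tested genes by the method of Benjamini and Hochberg, and "rose" and "fell" are used for genes with an adjusted p under 0.05. A call is said to have held when it was also made in each of the 8 fits that left out 1 wild-type heart.

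Libraries held 11887347 to 13298660 counts in the 8 wild-type hearts, and 15751 to 15822 genes had a count in an aged heart against 15192 to 15437 in a young heart. The most abundant transcripts per length were those of ventricular muscle, led by Myl2 at a mean of 23094 FPKM in young and 23492 FPKM in aged hearts. Armh4 itself was at 12.7, 14.1, 17.5 and 17.7 CPM in young and 20.3, 18.3, 15.9 and 19.5 CPM in aged wild-type hearts (0.26 ± 0.15, adjusted p = 0.245). In the knockout hearts it lay between 0.0825 and 1.68 CPM, below every wild-type heart. Transcripts of the Y-linked genes were present in all 8 wild-type hearts.

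Of 13373 genes tested, 2930 changed with age (21.9%), 1588 upward (11.9%) and 1342 downward (10%). The counts of list members below are to be read beside these shares. Rises were the larger changes. Their median was 0.85 on the log2 scale, against -0.41 for falls, and 684 rises but only 82 falls exceeded 2-fold. Past 4-fold there were 203 rises and 11 falls. At 1602 genes every aged heart was above every young heart (12.0%), and at 1294 every aged heart was below (9.68%). The calls held for 1123 of the rises and 623 of the falls, and the falls numbered 844, 856 and 871 without WT_Young_34, WT_Young_39 and WT_Young_42. Rises made up 54.2% of the calls. That share was 68.3% with upper-quartile scaling, 72.3% with limma on log2(FPKM + 1) and 64.7% in a fit of the 8 wild-type libraries alone.

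Rises and falls sat at opposite ends of the expression range. When the tested genes were ordered by mean CPM over the 8 hearts and cut into 4 bins of equal size, 20.5% of the lowest bin (below 6.90 CPM) rose and 3.44% fell. In the highest bin (above 56.3 CPM) 6.04% rose and 16.4% fell. Rises in the lowest bin had a median of 1.31, and falls in the highest bin a median of -0.37. With upper-quartile scaling the highest bin still held more falls than rises, 363 against 278, and with limma on log2(FPKM + 1) 326 against 295. The genes that rose took 4.50% to 4.82% of all counts in young hearts and 6.65% to 8.19% in aged hearts. The genes that fell took 19.2% to 22.2% in young and 13.8% to 16.8% in aged hearts, a description of genes already chosen by these values.

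**Figure D1:**
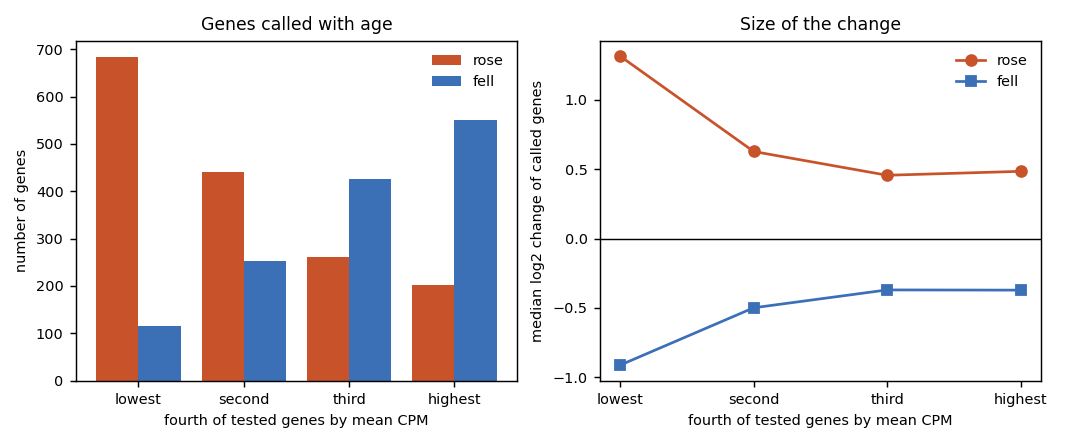
Number of genes that rose or fell with age (left) and the median log2 change of those genes (right), in 4 equal bins of the 13373 tested genes ordered by mean CPM over the 8 wild-type hearts. Rises decline from 684 in the lowest to 202 in the highest bin, where 550 genes fell.

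The aged hearts differed among themselves more than the young ones did. The standard deviation of log2 CPM was larger among the aged hearts at 9132 genes (68.3% of those tested), with a median of 0.20 against 0.14. In a principal component analysis of the 8 hearts, the first component (55.5% of variance) placed the young hearts between -38.5 and -26.5 and the aged hearts at 21.3, 26.9, 29.4 and 42.2. The second component (15.7%) separated aged hearts from each other, with WT_Aged_5 at 26.8 and WT_Aged_1 at -31.5. Of the 1588 genes that rose, 732 were highest in WT_Aged_1, and of the 1342 that fell, 728 were lowest there. Leaving WT_Aged_1 out gave 1611 rises and 1051 falls.

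The spread among aged hearts fell on different hearts for different gene groups. The mean of the interferon-gamma GTPases was highest in WT_Aged_5 and lowest in WT_Aged_12. The means of the monocyte, complement and acute-phase lists were highest in WT_Aged_1. That heart also stood apart in lists with few calls. It was the highest aged heart at all 76 cytosolic ribosome genes and at 30 of 37 complex I genes. It was the lowest at 23 of 43 calcium handling genes and at 21 of 37 fatty acid oxidation genes. The cause of this wider shift was not tested. The 10 genes with the widest spread among aged hearts included Apol9a, an interferon-inducible apolipoprotein L, at 0.480, 8.16, 30.9 and 2.68 CPM, and Cxcl13, a chemokine that draws B cells, at 1.52, 3.57, 5.42 and 38 CPM.

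**Figure D2:**
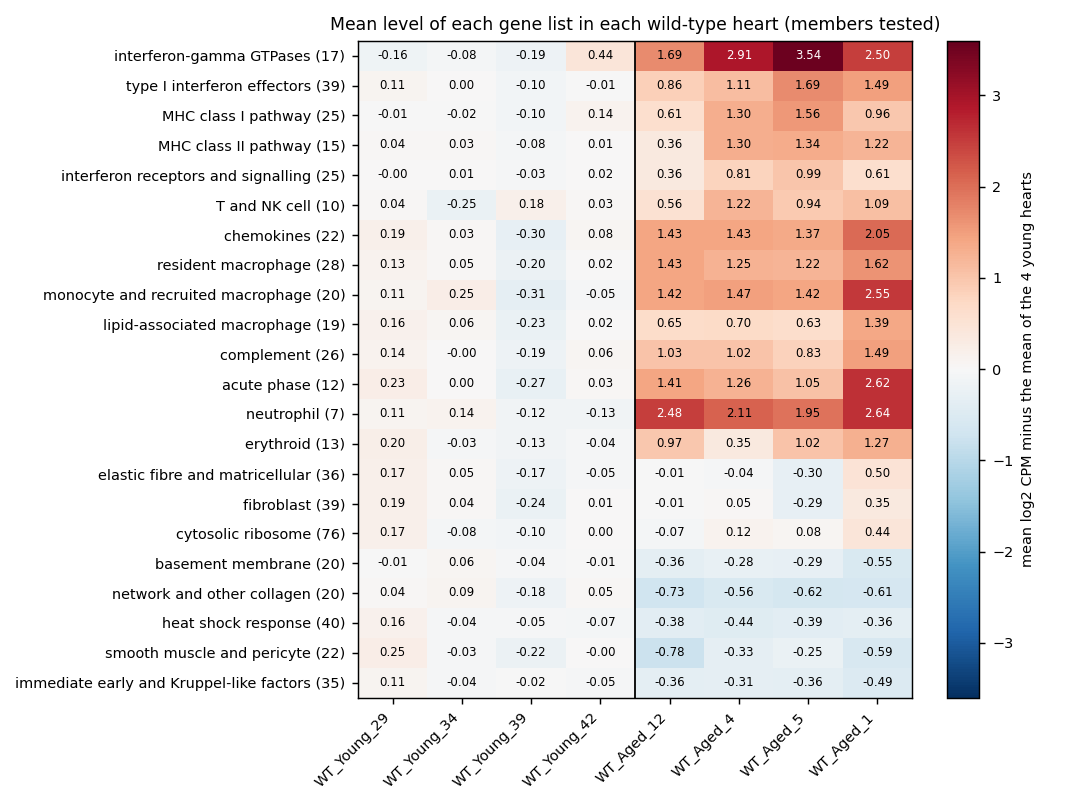
Mean log2 CPM of the tested members of each gene list in each wild-type heart, minus the mean of the 4 young hearts, with the number of members in brackets. The interferon-gamma GTPases reach 3.54 in WT_Aged_5 and 1.69 in WT_Aged_12, while the acute-phase list reaches 2.62 in WT_Aged_1 and at most 1.41 in the other aged hearts.

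The interferon-gamma-inducible GTPases, which coat and disrupt membranes that enclose pathogens, had the largest median change of the 74 lists described. All 17 tested members rose and all 17 calls held, with a median log2 change of 3.08 against -0.01 over all tested genes. Gbp2, a guanylate-binding protein, was at 24.1, 18.7, 15.3 and 23.6 CPM in young hearts and 54.5, 79.1, 79.7 and 90.3 CPM in aged hearts. Every aged heart was above every young heart, and the change was 1.89 ± 0.16 (adjusted p = 3.38e-07). Igtp, an immunity-related GTPase, was at 14.0, 15.3, 17.0 and 25.7 CPM in young hearts and 41.3, 423, 1562 and 105 CPM in aged hearts (4.89 ± 0.77, adjusted p = 0.000165). The groups did not overlap, but the aged hearts themselves spanned a wider range than the step from young to the lowest aged heart. Iigp1 had the same order of aged hearts, at 171, 726, 2169.7 and 343 CPM against 39.4 to 67.2 CPM in young hearts (4.10 ± 0.53). Across the list, WT_Aged_12 was the lowest aged heart at 15 of 17 members and WT_Aged_5 the highest at 9.

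The regulatory letters that interferon-activated transcription factors read were looked for in the 250 bases before the start of each gene, in the promoter windows of RefSeq for mouse build GRCm38.p6. The interferon-stimulated response element was searched as GAAANNGAAA or its reverse complement TTTCNNTTTC, so on both strands. Of the 10 tested GTPase genes with a window, 9 held a match (90.0%), against 352 of 10625 tested genes (3.31%). A match was present in 111 of 1242 genes that rose (8.94%), in 19 of 1042 that fell (1.82%), in 16 of 32 type I interferon effectors and in 3 of 21 genes of the MHC class I pathway. The sequences below show the matched letters in capitals for 5 genes that rose in every aged heart, each written 5′ to 3′ along the gene. They lie at chr3:142620559-142620658 (Gbp2, plus strand), chr3:142496724-142496823 (Gbp5, plus), chr3:142530238-142530335 (Gbp7, plus), chr11:48871421-48871495 (Irgm1, minus) and chr2:122147503-122147602 (B2m, plus).
Gbp2: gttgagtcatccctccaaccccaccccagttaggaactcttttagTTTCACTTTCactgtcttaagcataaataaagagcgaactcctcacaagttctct
Gbp5: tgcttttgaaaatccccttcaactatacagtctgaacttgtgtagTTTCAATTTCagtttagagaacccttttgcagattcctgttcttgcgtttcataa
Gbp7: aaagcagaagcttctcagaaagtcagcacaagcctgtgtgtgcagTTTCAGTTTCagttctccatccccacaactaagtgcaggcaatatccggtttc
Irgm1: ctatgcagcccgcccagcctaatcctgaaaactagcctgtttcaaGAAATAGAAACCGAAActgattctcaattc
B2m: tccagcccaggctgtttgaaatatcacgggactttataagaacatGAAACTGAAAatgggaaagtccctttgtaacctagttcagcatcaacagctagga
The match nearest the gene start began 59 bases before it in Gbp2 and 53 in Gbp7, and 165 bases before it in Gbp5. Irgm1 held 2 overlapping matches. The letters describe the windows and are not evidence that a factor was bound in these hearts.

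Genes that carry the interferon signal rose in part. Among 25 tested receptor and signalling genes 14 rose and 1 fell, and 13 of the rises held. Ifngr1 and Ifnar1, the ligand-binding receptor chains for interferon-gamma and type I interferon, gave 0.09 ± 0.07 and 0.12 ± 0.08 and did not pass. Irf1, an interferon-induced transcription factor, rose by 1.14 ± 0.14, and Irf9, which completes the type I interferon complex, rose by 0.90 ± 0.14. Irf7, the amplifier of type I interferon production, rose from 11.8 to 15.9 CPM in young hearts to 25.6, 39.5, 68.3 and 62.1 CPM (1.82 ± 0.24).

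Type I interferon effectors, the genes that block viral replication, rose at 35 of 39 tested members, and all 35 calls held, with a median of 1.27. Ifit1, which binds foreign RNA ends, was at 4.91 to 6.88 CPM in young and 11.8, 17.3, 61.2 and 25.3 CPM in aged hearts (2.37 ± 0.37, adjusted p = 0.000133). Isg15, a ubiquitin-like modifier, rose by 1.35 ± 0.25 and Rsad2, which makes an antiviral nucleotide, by 0.99 ± 0.14. Sensors of nucleic acid rose at 19 of 31 members and fell at 1. Zbp1, a sensor that can start necroptosis, was under 1.5 CPM in every young heart and at 3.28, 6.26, 8.33 and 11.6 CPM in aged hearts (2.97 ± 0.37). Ifih1, a sensor of long double-stranded RNA, rose by 0.94 ± 0.14.

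Antigen presentation rose through both classes of MHC. In the class I pathway, which shows peptides made inside the cell, 18 of 25 members rose, all 18 calls held, and the median was 1.19. The 1 member that fell did not hold. B2m, the light chain of every class I molecule, was at 244, 205, 186 and 251 CPM in young and 406, 939, 937 and 758 CPM in aged hearts (1.78 ± 0.20, adjusted p = 6.69e-06). Tap1, the transporter that loads peptides, was at 10.8 to 12.4 CPM in young and 29.1, 84.9, 145 and 44.8 CPM in aged hearts (2.72 ± 0.35). The immunoproteasome subunits Psmb8 and Psmb9, which cut peptides for loading, rose by 2.09 ± 0.27 and 2.21 ± 0.31. Nlrc5, the transactivator of class I genes, rose by 2.70 ± 0.35. Canx, a general chaperone that also folds class I chains, gave -0.18 ± 0.08 (adjusted p = 0.104). WT_Aged_12 was the lowest aged heart at 17 of the 25 members.

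In the class II pathway, used by professional antigen-presenting cells, 12 of 15 members rose and all 12 calls held, with a median of 1.35. H2-Aa, a class II alpha chain, was at 49.0, 59.0, 42.6 and 57.6 CPM in young and 63.7, 238, 288 and 162 CPM in aged hearts (1.85 ± 0.29, adjusted p = 0.000146). Cd74, the invariant chain, was at 75.8 to 98.4 CPM in young and 99.3, 416, 373 and 187 CPM in aged hearts (1.59 ± 0.29). In WT_Aged_12 both genes lay just above the young range, while in the other 3 aged hearts they were well above it. H2-Ab1 reached only 36.8 CPM in WT_Aged_12, inside the young range of 31.3 to 42.7 CPM, so that its groups overlapped (1.77 ± 0.32, adjusted p = 0.000553). Cd274, which encodes the T-cell inhibitory ligand PD-L1, went from 8.70 to 10.5 CPM in young hearts to 34.4, 68.4, 184 and 48.3 CPM (3.12 ± 0.41).

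**Figure D3:**
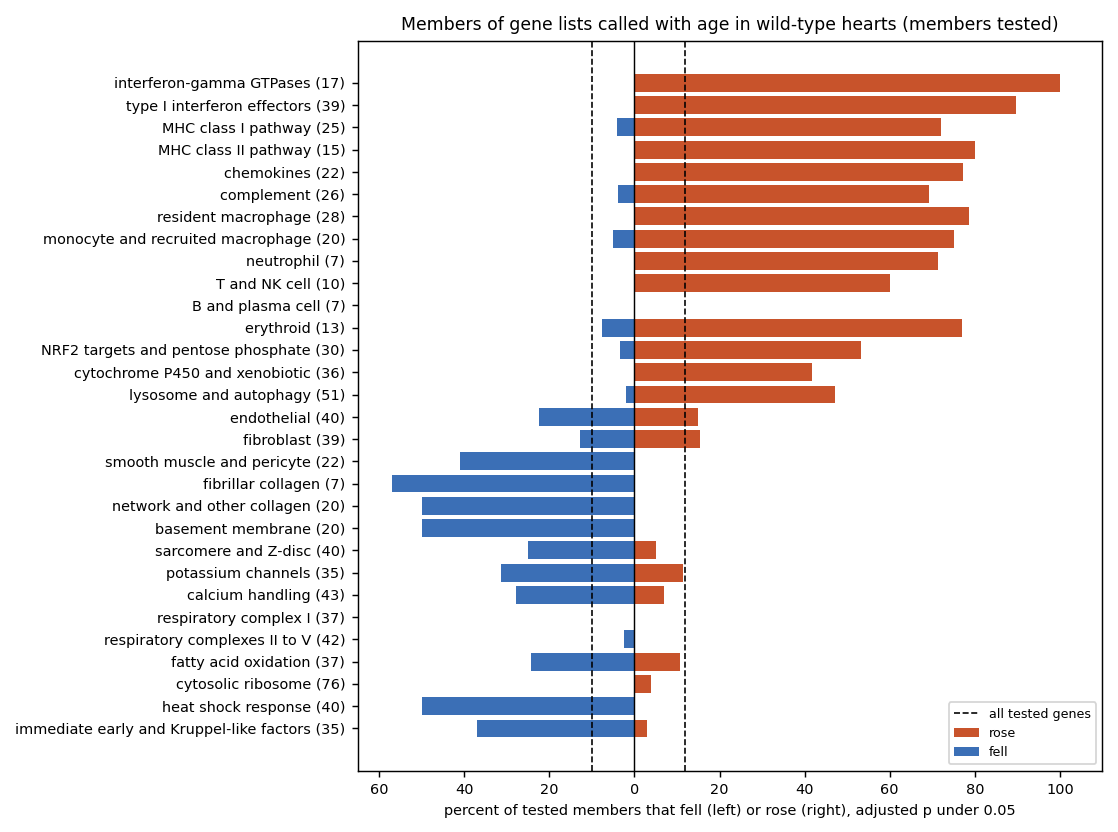
Percent of the tested members of each gene list that rose (right) or fell (left) with age, with the number tested in brackets and dashed lines at 11.9% and 10%, the shares over all tested genes. Interferon, antigen presentation and macrophage lists extend to the right, and collagen, basement membrane, smooth muscle and heat shock lists to the left.

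Macrophage transcripts rose in all 4 aged hearts. Markers of resident cardiac macrophages rose at 22 of 28 members, 21 of which held, with a median of 1.30, and their summed level went from 558 to 690.3 CPM in young hearts to 1087 to 1393 CPM in aged hearts. Csf1r, the receptor for the macrophage growth factor, was at 39.3, 44.9, 31.8 and 42.1 CPM in young and 77.2, 76.2, 81.4 and 78.9 CPM in aged hearts (0.99 ± 0.11, adjusted p = 7.86e-06). Its aged values were nearly equal, unlike those of the interferon genes. Folr2, a folate receptor of resident macrophages, rose by 1.39 ± 0.15. Timd4 and Lyve1, which mark the self-renewing subset, gave 0.40 ± 0.25 and 0.49 ± 0.19 and did not pass (adjusted p = 0.273 and 0.0734). Lyve1 passed with upper-quartile scaling (adjusted p = 0.0494), in the wild-type libraries alone (0.0328) and without WT_Aged_5 (0.0366). Vsig4, a complement receptor of tissue macrophages, was below 0.9 CPM in each young heart and at 7.52, 3.25, 3.67 and 9.08 CPM in aged hearts (2.92 ± 0.42).

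Monocyte and recruited-macrophage markers rose at 15 of 20 members and fell at 1, all 15 rises held, and the median was 1.73. Ccr2, the receptor that brings monocytes out of blood, was at 3.54, 3.62, 1.89 and 2.35 CPM in young and 9.36, 17.6, 10.9 and 27.8 CPM in aged hearts (2.51 ± 0.32, adjusted p = 1.98e-05). Lgals3, a lectin of activated macrophages, was at 1.21 to 2.41 CPM in young and 10.5, 8.72, 8.48 and 26.5 CPM in aged hearts (2.75 ± 0.33). WT_Aged_1 was the highest aged heart at 15 of the 20 members. Lipid-associated macrophage genes rose at 14 of 19 members, 11 of which held, among them Trem2, a lipid receptor (1.65 ± 0.28), and Gpnmb (1.54 ± 0.26).

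Markers of other leucocytes rose in part. Of 19 neutrophil markers 7 had enough counts to be tested, and 5 of these rose. The summed level of the list went from 6.21 to 8.13 CPM to 31 to 73.0 CPM. Csf3r, the receptor for granulocyte growth factor, was at 1.38 to 1.61 CPM in young and 8.16, 8.48, 8.33 and 4.62 CPM in aged hearts (2.29 ± 0.28). Of 34 T and NK cell markers only 10 had enough counts to be tested, and 6 of these rose. Cd8a was at 0.168 to 0.344 CPM in young and 1.12, 4.52, 1.22 and 2.68 CPM in aged hearts (3.10 ± 0.54), whereas Cd4 gave 0.08 ± 0.38 and did not pass. Of 30 B and plasma cell markers 7 were tested and none passed. Near the floor a marker is tested only if a group of hearts is high enough, so unchanged low markers are left out of these shares. Fcer1g, the signalling chain of activating Fc receptors, rose by 1.63 ± 0.17. The part of leucocyte number in the interferon and antigen presentation results was not tested.

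Secreted immune factors also rose. Chemokines rose at 17 of 22 members, and all 17 calls held. Ccl8, a monocyte attractant, was below 0.65 CPM in every young heart and at 12.6, 16.6, 22.2 and 37.4 CPM in aged hearts (5.64 ± 0.41, adjusted p = 7.57e-08). Complement genes rose at 18 of 26 members and fell at 1, and 16 of the rises held. C3, on which all complement pathways converge, was at 178, 168, 124 and 192 CPM in young and 710.0, 463, 402 and 743 CPM in aged hearts (1.81 ± 0.18, adjusted p = 2.44e-06). C4b was at 14.1 to 25.0 CPM in young and 149.8, 133, 141 and 279 CPM in aged hearts (3.00 ± 0.29). Cfb, the protease of the alternative pathway, rose in all aged hearts but most in WT_Aged_1, at 19, 13.2, 14.7 and 71.7 CPM against 1.64 to 2.98 CPM (3.79 ± 0.51). WT_Aged_1 was the highest aged heart at 22 of the 26 complement genes.

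Genes of inflammatory cell death rose in part. Of 28 tested, 13 rose and none fell, and 11 of the rises held. Casp1, the inflammasome protease, was at 2.10 to 3.70 CPM in young and 7.92, 7.85, 9.32 and 13 CPM in aged hearts (1.77 ± 0.23). Gsdmd, the pore protein it cleaves, rose by 0.66 ± 0.13. Il1b, a cytokine matured by the same protease, rose from 0.322 to 0.755 CPM to 3.28, 1.82, 2.75 and 2.19 CPM (2.26 ± 0.36). The sensor Nlrp3 gave 0.85 ± 0.31 and did not pass (adjusted p = 0.0571), but passed with upper-quartile scaling (0.0457), without WT_Young_34 (0.0485) and in both limma fits (0.0415 and 0.0367).

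WT_Aged_1 carried a further set of transcripts at levels not seen in the other 7 hearts. Serpina3n, an acute-phase protease inhibitor, was at 52.9, 38.2, 21.2 and 209 CPM in aged hearts against 9.21 to 19.2 CPM in young ones (2.46 ± 0.58, adjusted p = 0.00518). Timp1, an inhibitor of matrix proteases, was at 3.76, 2.22, 2.37 and 23.1 CPM against 1.38 to 3.94 CPM, so that only WT_Aged_1 stood outside the young range. Lox, the collagen cross-linking enzyme, was at 39.7 CPM in WT_Aged_1 and at 4.20 to 7.04 CPM in the other 7 hearts. Lcn2, an iron-sequestering protein of neutrophils and injured tissue, was at 28.7 CPM there and at most 3.84 CPM elsewhere, and Spp1, osteopontin, at 8.52 CPM there and at most 0.755 CPM elsewhere. None of these 4 passed the test (adjusted p = 0.0676 for Timp1, 0.0551 for Lox, 0.0506 for Lcn2 and 0.113 for Spp1). Timp1, Lox and Lcn2 each passed when WT_Aged_12, WT_Aged_4 or WT_Aged_5 was left out (adjusted p between 0.0117 and 0.0487). Lox and Lcn2 also passed with upper-quartile scaling (0.0495 and 0.0467) and with no filter (0.0419 and 0.0369), and Lcn2 with DESeq2 (0.0473). Postn, the matricellular protein of activated fibroblasts, was at 401 CPM in WT_Aged_1 and between 42.9 and 78.0 CPM in the other 7 hearts. It passed with all hearts (1.38 ± 0.49, adjusted p = 0.0487) and gave 0.18 (adjusted p = 0.662) without WT_Aged_1. Its call was also lost without WT_Young_29, WT_Young_34, WT_Young_39 or WT_Young_42 (adjusted p = 0.0568, 0.0809, 0.125 and 0.106). The cardiomyocyte stretch marker Nppa was at 85.7, 60.5, 102 and 409.6 CPM in aged hearts and 153 to 355 CPM in young hearts, and passed only without WT_Aged_1 (-1.66, adjusted p = 0.0382). Ankrd1 was at 3385 CPM in WT_Aged_1 against 1019 to 1721 CPM in the other 7.

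Most markers of red blood cells were also higher in aged hearts. The list of them also holds genes that interferon induces, whose part in its count was not tested. Erythroid markers rose at 10 of 13 members and fell at 1, and their summed level went from 1030.1 to 1143 CPM to 1296 to 2585 CPM. Alas2, the first enzyme of haem synthesis in erythroid cells, was at 13.8, 9.65, 9.04 and 11.1 CPM in young and 35.7, 16.5, 35.3 and 36.1 CPM in aged hearts (1.5 ± 0.25, adjusted p = 0.000333). WT_Aged_4, which was among the highest for MHC genes, was the lowest for Alas2 and at 11 of the 13 erythroid members. Tfrc, which imports transferrin-bound iron and is made by many cell types, moved the other way, from 222, 257, 251 and 193 CPM to 46.6, 31.4, 65.6 and 123 CPM (-1.79 ± 0.31, adjusted p = 0.000432). Ftl1 and Fth1, the ferritin chains that store iron, rose by 0.69 ± 0.11 and 0.45 ± 0.09, and Hmox1, which frees iron from haem, rose by 1.38 ± 0.23. How much retained blood the hearts held was not measured, and its part in these results was not tested.

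Collagen and basement membrane genes moved down. Fibrillar collagens fell at 4 of 7 members, network and other collagens at 10 of 20 and basement membrane genes at 10 of 20, and no member of the 3 lists rose. The medians were -0.66, -0.66 and -0.43, and 3, 7 and 8 of the calls held. Col1a1, a chain of the main fibrillar collagen, was at 129.6, 118, 89.5 and 104 CPM in young and 48.2, 57.5, 32.8 and 49.7 CPM in aged hearts (-1.23 ± 0.18, adjusted p = 8.89e-05). Col3a1, its partner, was at 104, 119 and 79.3 CPM in 3 aged hearts but 327 CPM in WT_Aged_1, inside the young range of 216 to 348 CPM, and did not pass (-0.89 ± 0.33, adjusted p = 0.0599). Without WT_Aged_1 it gave -1.52 (adjusted p = 0.000116), and it also passed with no filter (0.0405) and in both limma fits (0.0463 and 0.0435). Col4a1, the main chain of basement membrane collagen, was at 670.2, 671, 577 and 549 CPM in young and 274, 316, 255 and 231 CPM in aged hearts (-1.20 ± 0.13, adjusted p = 3.85e-06). Here WT_Aged_1 was the lowest heart, and for Col15a1, a basement membrane collagen of muscle and capillaries, it was lowest again at 36.1 CPM (-1.52 ± 0.17).

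Genes that process or bind collagen were also measured. Collagen maturation genes fell at 6 of 28 members (21.4%, against 10% over all tested genes) and none rose. Only 2 of these calls held, and the median was -0.10. Serpinh1, the collagen chaperone, went from 239 to 311 CPM to 119.7 to 151 CPM (-0.96 ± 0.10), and Plod1, a collagen lysine hydroxylase, gave -0.52 ± 0.07. Hspg2, the proteoglycan perlecan, gave -0.58 ± 0.10 and Nid1, which links laminin to collagen, -0.64 ± 0.09. Small leucine-rich proteoglycans, which coat collagen fibrils, fell at 3 of 11 members, of which 1 call held. Dcn and Bgn, decorin and biglycan, gave 0.41 ± 0.15 and 0.11 ± 0.15 and did not pass (adjusted p = 0.0613 and 0.614). Dcn passed with upper-quartile scaling (adjusted p = 0.0416), with DESeq2 (0.0357) and without WT_Aged_5 (0.0125). Fibroblast markers as a list rose at 6 and fell at 5 of 39 members. A few matrix genes rose, among them Efemp1, a fibulin, from 11.3 to 13.8 CPM to 33.4, 29.9, 25.4 and 44.3 CPM (1.38 ± 0.17, adjusted p = 1.59e-05), and Thbs2, a matricellular thrombospondin (0.69 ± 0.11). Efemp1 and C3 are also among the 18 mesothelial and epicardial markers, of which 9 were tested and 4 rose. The untested markers had too few counts. The summed level of the list was 161 to 234 CPM in young and 455 to 843 CPM in aged hearts. Most of it was C3 alone, at 124 to 192 CPM in young and 402 to 743 CPM in aged hearts. The part of outer heart lining in these results was not tested.

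Endothelial markers did not move together. Of 40 endothelial markers 6 rose and 9 fell. All 6 rises held but only 2 of the falls, and the number of falls was 4 without WT_Young_29 and 5 without WT_Young_34. Pecam1, the pan-endothelial adhesion molecule, gave 0.02 ± 0.08 and Kdr, the main VEGF receptor, 0.09 ± 0.13, neither of which passed. Aqp1, the water channel of capillary endothelium, fell from 779, 689, 705 and 659 CPM to 248, 254, 261 and 149 CPM (-1.63 ± 0.14, adjusted p = 5.58e-07). Vcam1 and Icam1, the adhesion molecules that leucocytes bind on activated endothelium, rose by 1.08 ± 0.15 and 1.21 ± 0.17. Fabp4, a fatty acid carrier of capillary endothelium, rose by 0.82 ± 0.15.

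Among 36 VEGF, FGF and PDGF signalling genes 9 fell (25%) and 4 rose (11.1%, against 11.9% over all tested genes). Of these calls 3 and 3 held, and 4 falls were left without WT_Young_42. Vegfa, the main endothelial growth factor, was at 439.9 to 544 CPM in young and 359 to 374 CPM in aged hearts (-0.45 ± 0.07), while the related Vegfd rose from 1.98 to 2.49 CPM to 4.28 to 7.14 CPM (1.39 ± 0.18). In the Notch pathway, which sets arterial and pericyte identity, Notch1 gave -0.59 ± 0.13, Notch4 -0.74 ± 0.13 and the target Heyl -1.08 ± 0.18. The list of Wnt, Notch and Hippo signalling genes fell at 11 of 40 members (27.5%) and rose at 3 (7.5%), of which 6 and 2 calls held. Smooth muscle and pericyte markers fell at 9 of 22 members and none rose, but only 3 of the calls held, and 3 falls were left without WT_Aged_12, 5 without WT_Aged_1, 4 without WT_Young_29 and 5 each without WT_Young_34 and WT_Young_42. The 3 that held were Cspg4, a pericyte proteoglycan (-0.65 ± 0.14), and the contractile cytoskeleton genes Smtn (-0.46 ± 0.10) and Lmod1 (-1.20 ± 0.30). The defining marker Myh11 gave -0.99 ± 0.34 (adjusted p = 0.0422), and -0.76 (adjusted p = 0.114) without WT_Aged_12 or -0.64 (adjusted p = 0.175) without WT_Young_29. Its call was also lost without WT_Aged_4, WT_Aged_1, WT_Young_34 or WT_Young_42 (adjusted p = 0.0746, 0.079, 0.0627 and 0.0718).

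**Figure D4:**
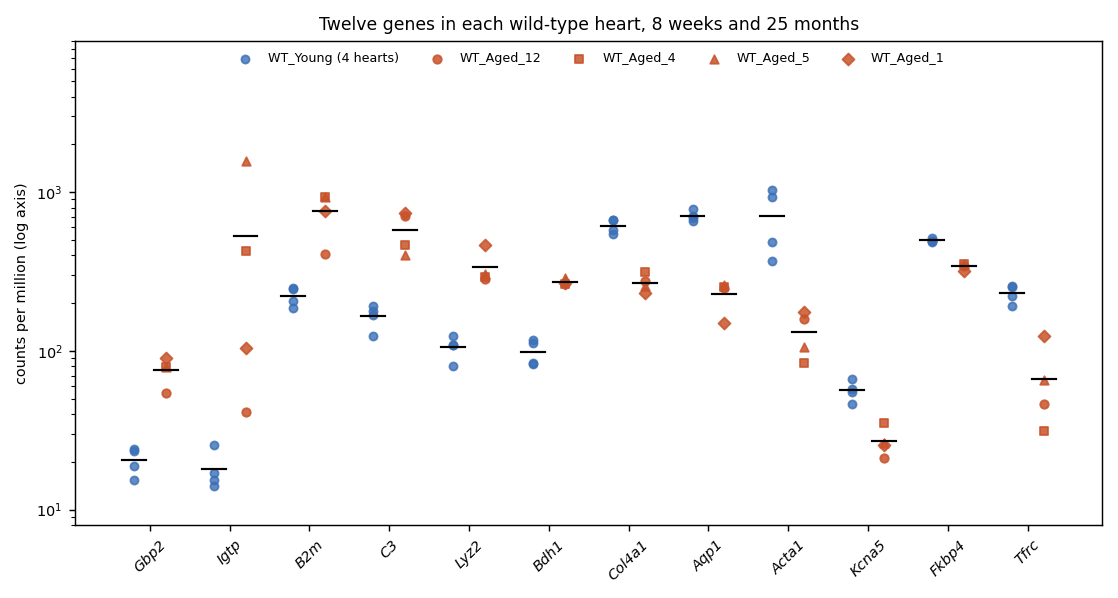
CPM of 12 genes in each of the 4 young hearts (blue circles) and 4 aged hearts (orange, 1 symbol per heart) on a log axis, with the group mean as a black line. The first 6 genes are higher and the last 6 lower in every aged heart than in every young heart, and Igtp spreads from 41.3 to 1562 CPM among aged hearts.

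Of the 10 most abundant genes per length, 2 passed the test, a share close to that over all tested genes. Myl2, Mb, Tpm1, Myl3, Fabp3, Tnnt2 and Tnni3, which encode contractile proteins, myoglobin and a fatty acid carrier, had changes between -0.12 and 0.10 and did not pass. Actc1, cardiac alpha-actin, was at 13478, 12510.4, 13789 and 12236 CPM in young and 8818, 7759.6, 10288 and 8487 CPM in aged hearts (-0.56 ± 0.11, adjusted p = 0.000879). Myh6, the fast myosin heavy chain, gave -0.40 ± 0.11 (adjusted p = 0.0138), and -0.30 (adjusted p = 0.0579) without WT_Aged_1 or -0.34 (adjusted p = 0.0526) without WT_Young_39. Its counts are uncertain, because its reads can be shared with Myh7. Acta1, the skeletal alpha-actin made in growing and overloaded hearts, was at 939, 1032, 368 and 485 CPM in young and 159.6, 84.2, 106 and 176 CPM in aged hearts (-2.42 ± 0.36, adjusted p = 9.50e-05). Casq1, the skeletal calsequestrin, was at 12.8 to 15.8 CPM in young and 1.53 to 2.68 CPM in aged hearts (-2.72 ± 0.41). The summed level of the skeletal muscle markers, which include both genes, was 2629 to 3137 CPM in young and 1880.4 to 2372 CPM in aged hearts, and its part in these falls was not tested. Over the list of 25 fetal and hypertrophy genes 8 fell and none rose, 4 of these calls held, and 4 falls were left without WT_Young_34 and 5 without WT_Young_39.

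Ion channel genes changed selectively. Of 35 potassium channel genes 11 fell (31.4%) and 4 rose (11.4%, against 11.9% over all tested genes), and 8 and 3 of these calls held. Kcna5, which carries a repolarising current in mouse myocytes, was at 66.9, 57.4, 55.3 and 46.1 CPM in young and 21.0, 35.3, 26.2 and 25.4 CPM in aged hearts (-1.06 ± 0.16, adjusted p = 0.000129). Kcne1, a regulatory subunit of the slow delayed rectifier, was at 4.36 to 6.04 CPM and 0.993 to 2.35 CPM (-1.76 ± 0.27), and Kcna4 gave -1.41 ± 0.29. Kcnk1, a leak channel, rose from 0.503 to 0.603 CPM to 7.52, 5.55, 3.51 and 4.22 CPM (3.20 ± 0.50). Scn4b, a beta subunit of the sodium channel, rose from 38.5 to 56.4 CPM to 163, 127, 146 and 78.9 CPM (1.44 ± 0.21). Of 31 sodium, chloride and pacemaker channel genes only 1 rose (3.23%) and 4 fell (12.9%, against 10% over all tested genes). The rise held and none of the falls did. Calcium handling genes fell at 12 of 43 members and rose at 3, of which 5 and 3 calls held, and 7 falls were left without WT_Aged_1, WT_Young_34, WT_Young_39 or WT_Young_42. The calcium channel genes Cacna1c (0.17 ± 0.16) and Ryr2 (-0.24 ± 0.16) did not pass, and nor did Atp2a2, the calcium pump (-0.12 ± 0.14), or its inhibitor Pln (-0.15 ± 0.08). Mcu, the mitochondrial calcium uniporter, fell by 0.45 ± 0.09.

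Genes of catecholamine and angiotensin signalling fell in a small set. Ddc and Dbh, enzymes of catecholamine synthesis, were low in all hearts. Ddc was at 2.41, 5.07, 9.64 and 2.77 CPM in young and 0.324 to 0.960 CPM in aged hearts (-3.09 ± 0.48, adjusted p = 0.000132), and Dbh gave -1.89 ± 0.43. Agt, the angiotensin precursor, was at 20.3, 5.95, 9.73 and 6.29 CPM in young and 2.48 to 3.72 CPM in aged hearts (-1.77 ± 0.32). Maoa, which degrades catecholamines, rose by 0.77 ± 0.15, and Grk5, a kinase that silences adrenergic receptors, by 0.50 ± 0.08. The list of natriuretic, adrenergic and autonomic genes fell at 12 and rose at 4 of 38 members, of which 7 and 3 calls held.

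Respiratory chain genes hardly passed the test. None of 37 complex I genes passed, and of 42 genes of complexes II to V only Uqcrc1 fell, a call that was lost without WT_Aged_1, WT_Aged_12, WT_Young_39 or WT_Young_42. Fatty acid oxidation genes rose at 4 of 37 members (10.8%, against 11.9% over all tested genes) and fell at 9 (24.3%, against 10%). All 4 rises held but none of the falls, and no fall was left without WT_Aged_1, WT_Young_39 or WT_Young_42, 1 without WT_Young_34 and 2 without WT_Aged_4. Larger changes were seen in single regulators of fuel choice. Pdk4, which closes pyruvate entry to the mitochondrion, was at 77.8, 89.5, 121 and 76.3 CPM in young and 299, 550.2, 183 and 213 CPM in aged hearts (1.77 ± 0.32, adjusted p = 0.000643). Ucp3, a mitochondrial carrier induced by fatty acids, rose by 1.61 ± 0.25 and Angptl4, an inhibitor of lipoprotein lipase, by 1.75 ± 0.32.

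Bdh1, which starts the use of the ketone body beta-hydroxybutyrate, was the most even of these, at 117, 84.3, 82.6 and 113 CPM in young and 263, 263, 286 and 268 CPM in aged hearts (1.45 ± 0.14, adjusted p = 1.63e-06). Gpd1, which makes the glycerol backbone of triglyceride from a glycolytic intermediate, was equally even in the other direction, at 103, 126, 135 and 101 CPM in young and 64.8, 62.1, 64.2 and 62.5 CPM in aged hearts (-0.87 ± 0.12). Triglyceride storage genes fell at 8 of 31 members (25.8%) and rose at 4 (12.9%, against 11.9% over all tested genes). Of these calls 6 and 2 held. The falls included Lpin1, a phosphatidate phosphatase (-0.68 ± 0.14). The lipid droplet coat gene Plin2 rose by 0.40 ± 0.07. Hk1, a hexokinase, gave -0.48 ± 0.11, and the glucose transporter Slc2a4 gave -0.07 ± 0.10 and did not pass. Glycolysis, glycogen and pyruvate genes rose at 5 of 48 members (10.4%) and fell at 6 (12.5%). Genes of ketone, branched-chain amino acid and one-carbon metabolism rose at 5 of 42 members (11.9%) and fell at 3 (7.14%). These shares are near the 11.9% and 10% over all tested genes.

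Detoxifying enzymes rose in part. Targets of the transcription factor NRF2, which oxidants activate, and pentose phosphate genes rose at 16 of 30 members and fell at 1. Of the rises 13 held, and the median was 0.33. Nqo1, a quinone reductase, was at 47.3, 50.2, 58.7 and 64.1 CPM in young and 82.1, 91.9, 120.4 and 93.9 CPM in aged hearts (0.82 ± 0.14, adjusted p = 0.000271). Gclm, a subunit of the enzyme that limits glutathione synthesis, rose by 0.69 ± 0.13, and Mgst1, a membrane glutathione transferase, by 1.06 ± 0.12. The member that fell was Nfe2l2, the gene for NRF2 itself. It went from 123 to 131 CPM to 98.8 to 117 CPM (-0.28 ± 0.07, adjusted p = 0.00597). In a fit of the 8 wild-type libraries alone its adjusted p was 0.0565. Cytochrome P450 and xenobiotic genes rose at 15 of 36 members with no fall, 13 of which held. Cyp2b10, a drug-inducible P450, was at 0.161, 1.37, 0.431 and 0.420 CPM in young and 16.3, 15, 5.96 and 4.54 CPM in aged hearts (4.10 ± 0.60).

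Protein folding genes fell while lysosomal genes rose. Heat shock genes fell at 20 of 40 members and none rose, 11 of the calls held, and the median was -0.28. Fkbp4, a co-chaperone of steroid receptors, was at 496, 487, 515 and 496 CPM in young and 344, 351, 354 and 318 CPM in aged hearts (-0.54 ± 0.07, adjusted p = 1.81e-05). Dnaja1, which delivers clients to HSP70, was at 218, 142, 130.1 and 128 CPM in young and 87.7, 67.2, 71.3 and 95.8 CPM in aged hearts (-0.94 ± 0.15). WT_Young_29 was the highest young heart for Dnaja1 and for Hspa1a, an inducible HSP70 gene that shares sequence with Hspa1b, at 34.8 CPM against 8.01 to 11.1 CPM in the other young hearts. Without it, 14 heat shock genes fell. Cryab, a small heat shock gene of muscle, gave 0.04 ± 0.10 and did not pass. Lysosome and autophagy genes rose at 24 of 51 members and fell at 1, 18 of the rises held, and the median was 0.225. Ctsd, a lysosomal protease, rose from 1116 to 1225 CPM to 1480.2 to 1530.1 CPM (0.37 ± 0.07), and Hexa, which degrades gangliosides, by 0.50 ± 0.07.

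Immediate early and Kruppel-like factors fell at 13 of 35 members and rose at 1, and 7 of the falls held. Klf2, a factor induced by blood flow in endothelium, was at 103, 92.4, 82.8 and 97.2 CPM in young and 49.8, 66.4, 61.3 and 48.2 CPM in aged hearts (-0.73 ± 0.14), and Dusp1, a phosphatase that ends stress kinase signals, gave -0.62 ± 0.12. Fos and Egr1, which are induced within minutes of stimulation, gave -0.01 ± 0.48 and -0.21 ± 0.34 and did not pass. Of 25 circadian clock genes 1 rose and 2 fell. DNA replication genes rose at 13 of 47 members with no fall, 10 of which held. Mki67, a marker of dividing cells, was at 2.90, 3.86, 2.50 and 3.52 CPM in young and 6.00, 6.89, 7.56 and 7.62 CPM in aged hearts (1.13 ± 0.22), and Mcm7, part of the replicative helicase, rose by 0.55 ± 0.11. Cdkn1a, the p53-induced cell cycle inhibitor, gave -0.49 ± 0.24 and did not pass (adjusted p = 0.163). Of 35 senescence, p53 and cell cycle inhibitor genes 32 had enough counts to be tested. Of these 5 rose (15.6%) and 4 fell (12.5%), against 11.9% and 10% over all tested genes, and 4 and 2 of the calls held. The amino acid transporters Slc38a1 and the imprinted Slc38a4 fell by 1.74 ± 0.22 and 0.99 ± 0.15.

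Whether these changes depended on Armh4 was tested with the interaction of age and genotype. It passed for 77 of 13373 genes (0.576%), of which 58 had risen and 16 had fallen in wild-type hearts and 3 had not changed there. In 59 the ageing change was lower in knockout than in wild-type hearts and in 18 it was higher. The call held for 38 of the 77 without any 1 wild-type heart, and their number was 45 to 48 when a young heart was left out and 54 to 179 when an aged heart was, with 179 without WT_Aged_12 and 117 without WT_Aged_1. Among the interferon-gamma GTPases the interaction passed at 14 of 17 members, in the MHC class I pathway at 11 of 25, in class II at 2 of 15 and in type I effectors at 4 of 39. Neither of the class II calls held. The median ageing change of these lists in knockout hearts was 0.14, 0.00, 0.19 and 0.41, against 3.08, 1.19, 1.35 and 1.27 in wild-type hearts. No test was run over a list, so the medians alone do not show a genotype difference for the members that did not pass.

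Gbp2 changed by 0.19 in knockout against 1.89 in wild-type hearts, a difference of -1.70 ± 0.22 (adjusted p = 0.000982). Tap1 changed by -0.00 against 2.72 (-2.72 ± 0.49, adjusted p = 0.0119), B2m by 0.18 against 1.78 (-1.60 ± 0.28, adjusted p = 0.0119) and Cd274 by 0.05 against 3.12 (-3.07 ± 0.57, adjusted p = 0.0127). Of the genes that fell in wild-type hearts, Gpd1 changed by 0.21 in knockout hearts against -0.87 (1.08 ± 0.16, adjusted p = 0.00367), Podn, a small proteoglycan, by 0.46 against -0.44 (0.90 ± 0.15, adjusted p = 0.00732) and Adamts9, a matrix protease of vessels, by -0.33 against -1.07 (0.73 ± 0.14, adjusted p = 0.0127). For other large wild-type changes the interaction did not pass. Bdh1 changed by 1.41 in knockout hearts against 1.45 (-0.03 ± 0.20, adjusted p = 0.97), Myot, a Z-disc protein, by 0.90 against 0.92, and Slc38a1 by -1.98 against -1.74. A p that misses the threshold does not show that the changes were equal.

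**Figure D5:**
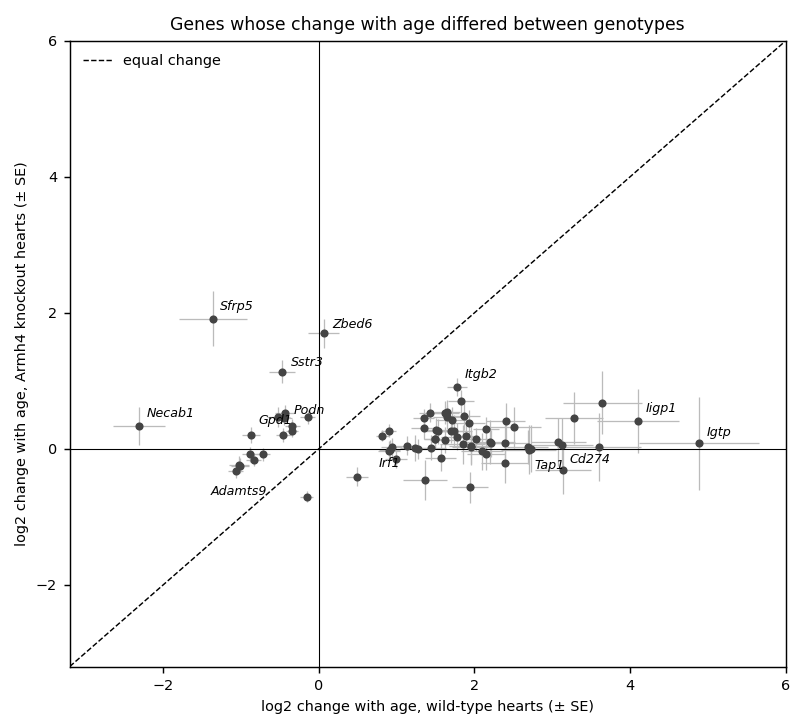
Log2 change with age in wild-type hearts (horizontal) and in Armh4 knockout hearts (vertical), each ± SE, for the 77 genes whose change differed between genotypes, with a dashed line at equal change. The genes were chosen for that difference, so their distance from the line is not a result; most lie near 0 on the knockout axis while spanning -2.31 to 4.89 on the wild-type axis.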

How the data were processed

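RNA from 16 whole hearts was sequenced, and per the submitters' processing notes the tools HISAT and Bowtie2 and the build GRCm39 were used. Which program counted the reads was not given in the sources used here. The authors deposited estimated counts per gene, some of which are not whole numbers, and a table of FPKM (counts scaled for transcript length and depth). Genes whose reads fit several copies can hold fractional counts and are uncertain.

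Estimated counts were rounded to whole numbers. Genes were filtered by edgeR's filterByExpr (13373 of 18346 left), scaled by TMM and tested in edgeR 4.0.16 (R 4.3.3) with the quasi-likelihood test over all 16 libraries in 4 groups, with no covariate. Log CPM used a prior count of 2. Alternatives were DESeq2 1.42.0, limma 3.58.1 on log2(FPKM + 1) and log2(FPKM + 0.1), other scalings and filters, the 8 wild-type libraries alone, and leaving out each wild-type heart. On simulated counts for 13263 genes the test recovered 91 of 99 genes changed 2-fold and 99 of 100 changed 4-fold, with 11 false calls. The simulated counts had the same spread in every group and few changed genes, balanced between rises and falls. They therefore cannot show how the test does with the unequal spread and many changes of these hearts. Replicates differed beyond counting noise in every pair (lowest chi-square per degree of freedom 3.675), so none was counted as a duplicate.

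Named genes were selected from the 15 largest rises and falls without overlap, up to 6 members of each list by adjusted p and the 3 most abundant, the 10 most abundant and the 10 most variable genes, up to 8 genes in each direction for the genotype difference, and defining markers. The other named genes, among 32 that rank alone does not choose, were chosen after their values were seen. The gene lists and the comparison were chosen with earlier results of these data known.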

Additional observations from a re-analysis of the deposited data

Results flagged for a closer look

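Among the 151 genes named, 302 groups of 4 hearts were checked for a heart apart from the other 3. A heart was flagged when its gap to the nearest heart was a large share of the group's range. The gap itself could be small. There were 26 such groups, 22 in aged and 4 in young hearts. Chance flags about 1 in 20 groups, but some of these genes were named for their spread among aged hearts or after their values were seen, so the count cannot be read against that rate. WT_Aged_1 was the heart that stood apart in 18 of them.

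WT_Aged_1 was flagged above the other aged hearts for Cxcl13 (38 CPM), Lgals3 (26.5 CPM), Lyz2 (468 CPM), C4b (279 CPM), Cfb (71.7 CPM), Serpina3n (209 CPM), Timp1 (23.1 CPM), Lox (39.7 CPM), Lcn2 (28.7 CPM), Spp1 (8.52 CPM), Postn (401 CPM), Nppa (409.6 CPM), Col3a1 (327 CPM), Mgst1 (103 CPM) and Mb (18461 CPM). For Mb the step was small, as the other aged hearts were at 15872 to 16128 CPM. It was far below them for Csf3r (4.62 CPM), Aqp1 (149 CPM) and Ifnar1 (38 CPM). WT_Aged_5 was high for Irgm1 (798 CPM) and Tpm1 (11718 CPM). WT_Aged_4 was low for Alas2 (16.5 CPM) and WT_Aged_12 low for Lmod1 (1.60 CPM). Of the young hearts, WT_Young_29 was high for Hspa1a (34.8 CPM), Dnaja1 (218 CPM) and Serpinh1 (311 CPM), and WT_Young_39 was low for C4b (14.1 CPM).

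The ageing change differed between genotypes, as knockout minus wild-type on the log2 scale, by -1.70 for Gbp2, -2.72 for Tap1, -1.60 for B2m, -3.07 for Cd274, 1.08 for Gpd1, 0.90 for Podn and 0.73 for Adamts9, each by the interaction test.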

How the results depend on the processing

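The count of rises stayed within 1.5 times the main count of 1588 under every alternative run. The count of falls, 1342, was 888 with upper-quartile scaling, 718 in the wild-type libraries alone, and 730 and 733 with limma at pseudocounts of 1 and 0.1. It ran from 844 to 1381 when 1 heart was left out. The 77 genes that differed between genotypes were 51 with limma at a pseudocount of 0.1 and 217 with DESeq2, and 45 to 179 when 1 heart was left out, 179 without WT_Aged_12 and 117 without WT_Aged_1. The count was 46, 48, 47 and 45 without WT_Young_29, WT_Young_34, WT_Young_39 and WT_Young_42. The cause was not tested. Of the 73 named genes that rose and 42 that fell, 111 kept their call without any 1 heart and 110 under the other alternatives as well. No called change of a named gene reversed its direction under any alternative. No paired analysis was possible because the groups share no animal number. With 4 hearts per group, small changes of genes with few counts were not detectable.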
